A study of Mus musculus with 5 samples.

Results

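Macrophage and complement genes were examined as a set of 36 genes, 24 for macrophage surface and function proteins and 12 for complement components, receptors and an inhibitor, chosen by gene symbol from a table of 22609 genes. All 36 were in the table. The table compares mammary glands of outbred mice taken on the day of birth, within 12 hours of delivery and with lymph nodes removed. The groups are wild type, with 2 libraries, and mice labelled Nfib-null, with 3 libraries, named after the gene for nuclear factor I/B, a transcription factor that the series studies together with STAT5, which relays the prolactin signal. The labels do not say in which cells the gene was removed, with what Cre or other means, or how many animals went into a library.

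Values were RPKM, read counts normalised for gene length and library size, given once per gene and group. No value of a single library was available here, so no spread between libraries, standard error or p-value can be given for any difference, and every comparison is a description of size. The column named Nfib-WT carries the name of the wild-type libraries. The column named NfibFF-WC was taken as the Nfib-null group because only that group remained, and is called the Nfib-null column. Nfib itself was at 55.3 RPKM in the column so named, against 33.7 RPKM in wild-type glands (log2 difference 0.30). The targeted gene was thus not lower there and gives no support to that assignment, which rests on the column names alone. A value over the whole gene can hold reads from exons and cells that were not deleted, and their part in the Nfib value was not tested. A difference is that of log2(scaled RPKM + 1) between the Nfib-null and the wild-type column, positive where Nfib-null was higher, after the columns had been scaled so that the median gene did not differ, and the words higher and lower are used for genes beyond 2-fold. Among the 12511 genes whose mean reached 1 RPKM, 6.95% were higher and 5.97% lower by this rule. The glands were lactating tissue by their RNA, with 8 milk protein genes making up 61.8% of all RPKM in wild-type glands and 26.2% in the Nfib-null column. Of these genes, Wap and Glycam1 had exactly the same wild-type value, 102755 RPKM, so the wild-type share is approximate.

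Macrophages are tissue phagocytes that depend on signalling through the CSF1 receptor. In the mammary gland they sit around ducts, alveoli and fat cells, take up dying cells and lipid, and help the gland to branch and to regress after lactation. Complement is a cascade of plasma and tissue proteins. C1q binds a target and activates the proteases C1r and C1s, these cleave C4 and C2 into an enzyme that splits C3, and factor B and properdin form and stabilise the alternative form of that enzyme. C1q chains and properdin are made largely by myeloid cells, whereas C1r, C1s, C4, C3 and C1 inhibitor are also made by fibroblasts, fat cells or epithelium.

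Promoter sequences are shown for the genes that the values below turn on, namely a pair of neighbouring C1q genes that stood higher by similar amounts, the genes with the largest ratios in the Nfib-null column (Gpnmb and Trem2), and Marco, which went the other way. They are RefSeq promoters of GRCm38.p6, each running from 250 bases before to 50 bases after the annotated start, 5′ to 3′ on the gene's strand. C1qb lies at chr4:136886151-136886450 (minus strand), C1qc at chr4:136892865-136893164 (minus), Trem2 at chr17:48346151-48346450 (plus), Gpnmb at chr6:49036268-49036567 (plus) and Marco at chr1:120504975-120505274 (minus). Capitals mark GAGGAA, the core that the myeloid factor PU.1 binds, on either strand, and in C1qc also TTGGCA, a half-site of the NFI family.

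C1qb: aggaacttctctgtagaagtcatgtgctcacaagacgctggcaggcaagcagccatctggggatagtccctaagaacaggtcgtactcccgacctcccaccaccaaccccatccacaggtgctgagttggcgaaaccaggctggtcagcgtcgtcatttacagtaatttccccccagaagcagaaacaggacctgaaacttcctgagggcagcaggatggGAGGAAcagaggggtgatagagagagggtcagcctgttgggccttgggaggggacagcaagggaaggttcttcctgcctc
C1qc: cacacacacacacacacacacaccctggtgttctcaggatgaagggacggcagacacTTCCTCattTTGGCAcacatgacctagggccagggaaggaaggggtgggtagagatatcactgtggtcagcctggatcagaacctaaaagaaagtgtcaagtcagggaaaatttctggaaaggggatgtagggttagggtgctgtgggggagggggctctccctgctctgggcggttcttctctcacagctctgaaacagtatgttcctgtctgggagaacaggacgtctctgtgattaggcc
Trem2: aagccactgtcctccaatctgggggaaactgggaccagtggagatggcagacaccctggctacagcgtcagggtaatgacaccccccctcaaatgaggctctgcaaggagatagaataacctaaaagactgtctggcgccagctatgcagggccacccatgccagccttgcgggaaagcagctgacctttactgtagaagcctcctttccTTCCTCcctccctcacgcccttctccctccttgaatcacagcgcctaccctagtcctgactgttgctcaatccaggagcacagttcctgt
Gpnmb: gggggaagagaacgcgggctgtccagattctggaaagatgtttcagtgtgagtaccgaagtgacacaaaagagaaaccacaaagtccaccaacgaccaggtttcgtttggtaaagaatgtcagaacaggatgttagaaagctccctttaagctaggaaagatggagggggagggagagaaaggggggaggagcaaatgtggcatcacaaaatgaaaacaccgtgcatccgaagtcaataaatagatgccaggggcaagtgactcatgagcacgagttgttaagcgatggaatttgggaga
Marco: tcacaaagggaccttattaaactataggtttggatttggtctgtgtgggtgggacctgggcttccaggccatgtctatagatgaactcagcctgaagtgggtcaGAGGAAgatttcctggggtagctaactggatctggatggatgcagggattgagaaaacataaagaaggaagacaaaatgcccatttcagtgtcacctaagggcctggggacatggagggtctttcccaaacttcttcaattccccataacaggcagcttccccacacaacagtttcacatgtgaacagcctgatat

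Counted from the annotated start, the leftmost base of the PU.1 core lay at −30 in C1qb, −193 in C1qc, −146 in Marco and −40 in Trem2. Gpnmb held neither motif. Promoters of 26 of the 36 genes were in the sequence table, and the first listed promoter of each was searched on both strands. GAGGAA was found in 14 of the 26 (53.8%), against 28.3% of all 27025 promoters of the same length. The half-site TTGGCA was found in 5 (Aif1, C1qc, Cd68, Cfp and Fcgr2b), 19.2% against 14.4%. The STAT motif TTCNNNGAA was in 2, C1ra and Fcgr1, 7.69% against 8.47%. The full NFI palindrome (TTGGC, 5 bases of any kind and GCCAA) and the E-box CACGTG were in 0 of the 26, against 0.0407% and 7.24% of all promoters. A match of letters is a description of the window and not a measured binding site.

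**Figure D1:**
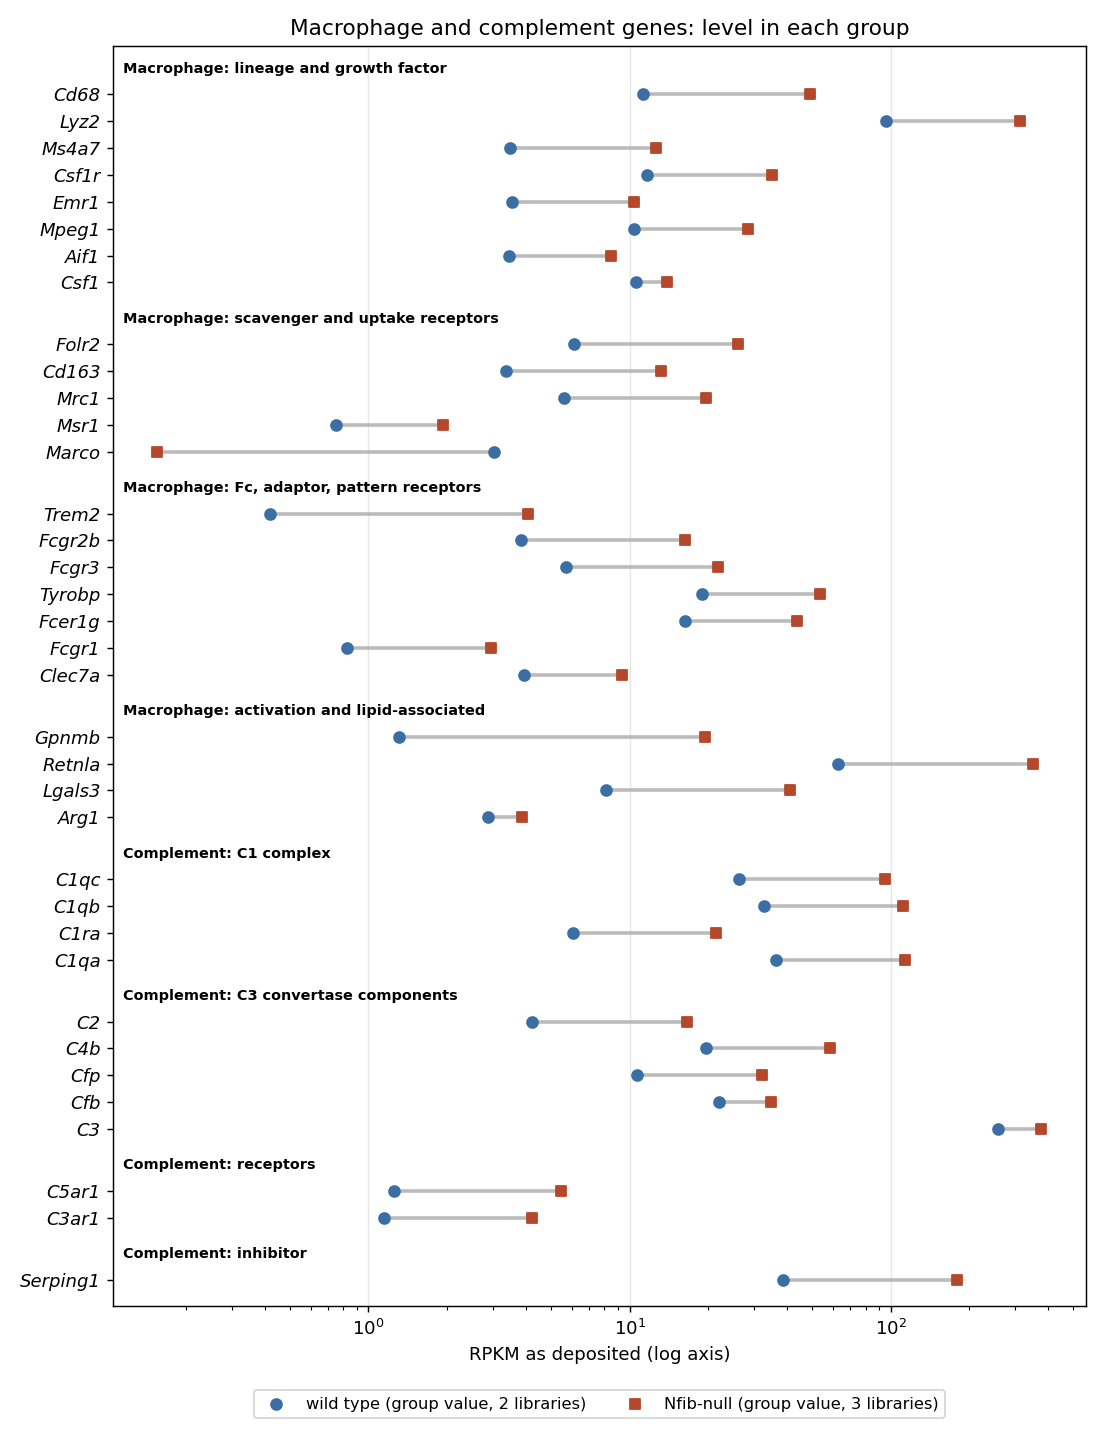
RPKM as deposited (log axis) of the 36 genes in the wild-type group (circles, 2 libraries) and the Nfib-null group (squares, 3 libraries), with 1 group value per gene and no error bars. Squares lie to the right of circles for every gene except Marco, which fell on the opposite side at 0.156 (Nfib-null) against 3.04 RPKM (wild type).

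Macrophage and complement genes stood higher in the Nfib-null column, with medians close to each other and sums that were not. Of 24 macrophage genes 14 were at least 2-fold higher and 1 was lower, with a median log2 difference of 1.18, and of 12 complement genes 10 were higher and 0 lower, with a median of 1.22. Of all genes tested 6.95% were higher and 5.97% lower, and their median was 0.00. The member medians turned to −0.49 and −0.50 when the columns were scaled to adipocyte markers and to −0.22 and −0.18 when scaled to fibroblast markers. Scaled to luminal epithelium markers, 4 macrophage genes (Trem2, Gpnmb, Lgals3 and Retnla) and 0 complement genes were higher, with medians of 0.40 and 0.47, with 1.41% of all genes higher and 31.8% lower. Summed RPKM, which the few most abundant genes dominate, in the Nfib-null column was 2.81 times that of the wild type for macrophage and 1.73 times for complement members after scaling. The complement median exceeded the macrophage median by 0.03, a difference that was −0.014 with a minimum mean of 5 RPKM. In a whole gland, more cells of a type and more RNA per cell cannot be told apart. All 36 genes passed the minimum of 1 RPKM, but Trem2, Fcgr1 and Msr1 were below 1 RPKM in the wild type and Marco in the Nfib-null column, so these 4 passed through their higher group alone.

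Genes that define macrophages came first. Csf1r, the receptor through which macrophages receive survival signals, stood at 35.0 RPKM in Nfib-null glands and at 11.7 RPKM in wild-type glands (log2 difference 1.11). Its ligand gene Csf1 stood at 13.9 against 10.6 RPKM (−0.01), so that the ratio of receptor to ligand RPKM was 2.52 in the Nfib-null column and 1.11 in the wild type. Cd68, a lysosomal membrane protein of phagocytes, differed most in this group, at 49.1 against 11.2 RPKM (1.65). Il34, the gene of the other ligand of this receptor, picked out once its value was known, stood at 6.80 against 3.16 RPKM (0.57).

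Lyz2, the lysozyme of myeloid cells, stood at 312 against 95.8 RPKM (1.28) and was the second most abundant macrophage gene in the Nfib-null column. Ms4a7, a membrane protein of mature macrophages, stood at 12.6 against 3.48 RPKM (1.25), and its wild-type value was shared exactly with 1 other gene. Emr1, which encodes the F4/80 antigen, stood at 10.4 against 3.53 RPKM (0.98). Mpeg1, the pore-forming protein perforin-2, stood at 28.4 against 10.4 RPKM (0.98), and Aif1, a calcium-binding protein of macrophage cytoskeleton, at 8.45 against 3.45 RPKM (0.74). Emr1 and Mpeg1 fell just short of the 2-fold limit with the pseudocount of 1, though their plain ratios of scaled RPKM were 2.21 and 2.05. They passed it with values as deposited, at 1.33 and 1.36. Without scaling Aif1, Fcer1g, Fcgr1 and Clec7a passed it too, so that 20 of the 24 macrophage genes were then higher, against 14.4% of all genes, whose median was then 0.35. With scaling, 4 of the 8 lineage and growth factor genes were higher and 0 lower, against 6.95% and 5.97% of all genes.

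Scavenger and uptake receptors split. Folr2, a folate receptor of tissue-resident macrophages, stood at 26.1 against 6.13 RPKM (1.55). Cd163, the receptor that clears haemoglobin bound to haptoglobin, stood at 13.2 against 3.36 RPKM (1.35), and Mrc1, the mannose receptor CD206, at 19.5 against 5.60 RPKM (1.27). These 3 genes, all used as markers of resident, alternatively activated macrophages, were higher. Timd4, another gene of resident macrophages picked out once its value was known, differed in the other direction, at 1.84 against 2.35 RPKM (−0.51). Msr1, class A scavenger receptor, stood at only 1.93 against 0.748 RPKM (0.52).

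Marco, a scavenger receptor that binds bacteria, was the single member lower in the Nfib-null column. It stood at 0.156 RPKM there and at 3.04 RPKM in wild-type glands, a ratio of 19.5 in favour of the wild type as deposited (log2 difference −1.99). Reads behind these values were few, roughly 189 in the wild type and 18 over 2 Nfib-null libraries, and the 95% interval of the ratio of Nfib-null to wild type (exact binomial, counting error only) was 0.0295 to 0.0826. With a pseudocount of 5 Marco came within 2-fold, at −0.73. Whether 1 of the 2 wild-type libraries carried its value cannot be seen from group values. Lymphocyte genes lay in the same direction as Marco, with 6 of 9 T and B cell markers lower (median −1.11, summed RPKM 14.1 against 30.2), and their part in the Marco value was not tested.

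Fc receptors and their signalling partners differed by similar amounts. Tyrobp (DAP12), an adaptor that passes signals from activating receptors, stood at 53.7 against 18.9 RPKM (1.06), and Fcer1g, the common gamma chain of Fc receptors, at 43.7 against 16.2 RPKM (0.98). Both adaptors lay at the 2-fold limit, 1 on each side, and the ratio of scaled RPKM without the pseudocount was 2.02 for Fcer1g. Fcgr3, an activating receptor for IgG, stood at 21.9 against 5.71 RPKM (1.40), and Fcgr2b, the inhibitory one, at 16.3 against 3.84 RPKM (1.48). The ratio of the activating to the inhibitory gene was 1.34 in the Nfib-null column and 1.49 in the wild type. These genes are near copies that flank Fcgr4 in the RefSeq gene order, so reads shared between them are uncertain.

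Fcgr1, the high-affinity IgG receptor, stood at 2.95 against 0.826 RPKM (0.87), a ratio of 3.58 as deposited that the pseudocount shrinks at such low values. Clec7a (dectin-1), a receptor for fungal glucans, stood at 9.32 against 3.95 RPKM (0.71). Trem2, a lipid-sensing receptor that signals through Tyrobp, stood at 4.09 against 0.419 RPKM (1.61). The ratio for Trem2 was 9.74 as deposited, with a 95% counting interval of 5.70 to 17.3 from roughly 269 and 15 reads. The ratio for its adaptor Tyrobp was 2.84, but Trem2 was below 1 RPKM in the wild type, and with a pseudocount of 5 the order turned, to 0.64 for Trem2 and 0.95 for Tyrobp.

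Genes of activated and lipid-laden macrophages showed the largest differences toward the Nfib-null column. Gpnmb, a glycoprotein of lysosomes that is induced in lipid-laden macrophages, stood at 19.5 against 1.31 RPKM, a ratio of 14.8 as deposited (log2 difference 2.83). Retnla (RELM-alpha), a secreted product of alternatively activated macrophages that fat tissue also expresses, stood at 350 against 62.9 RPKM (2.05). Lgals3, galectin-3, a carbohydrate-binding protein of macrophages and epithelium, stood at 41.2 against 8.09 RPKM (1.83).

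Arg1, arginase 1, another gene of alternative activation, was not higher with Retnla, at 3.87 against 2.87 RPKM (0.01). On the scale with a pseudocount of 1, Gpnmb and Retnla were the 2 members beyond 4-fold, a size that 0.727% of all genes reached in this direction. As plain ratios of scaled RPKM, without the pseudocount, Trem2 (7.33) was also beyond 4-fold, and Marco (26.0) in the other direction. Adipocyte markers were higher in the same column, with 9 of 10 beyond 2-fold (median 1.89, summed RPKM 10416 against 2154), and their part in the Retnla value was not tested. Luminal epithelium markers had 6 of 16 higher and 1 lower (median 0.83, summed RPKM 2363 against 1662), and their part in the Lgals3 value was not tested either.

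**Figure D2:**
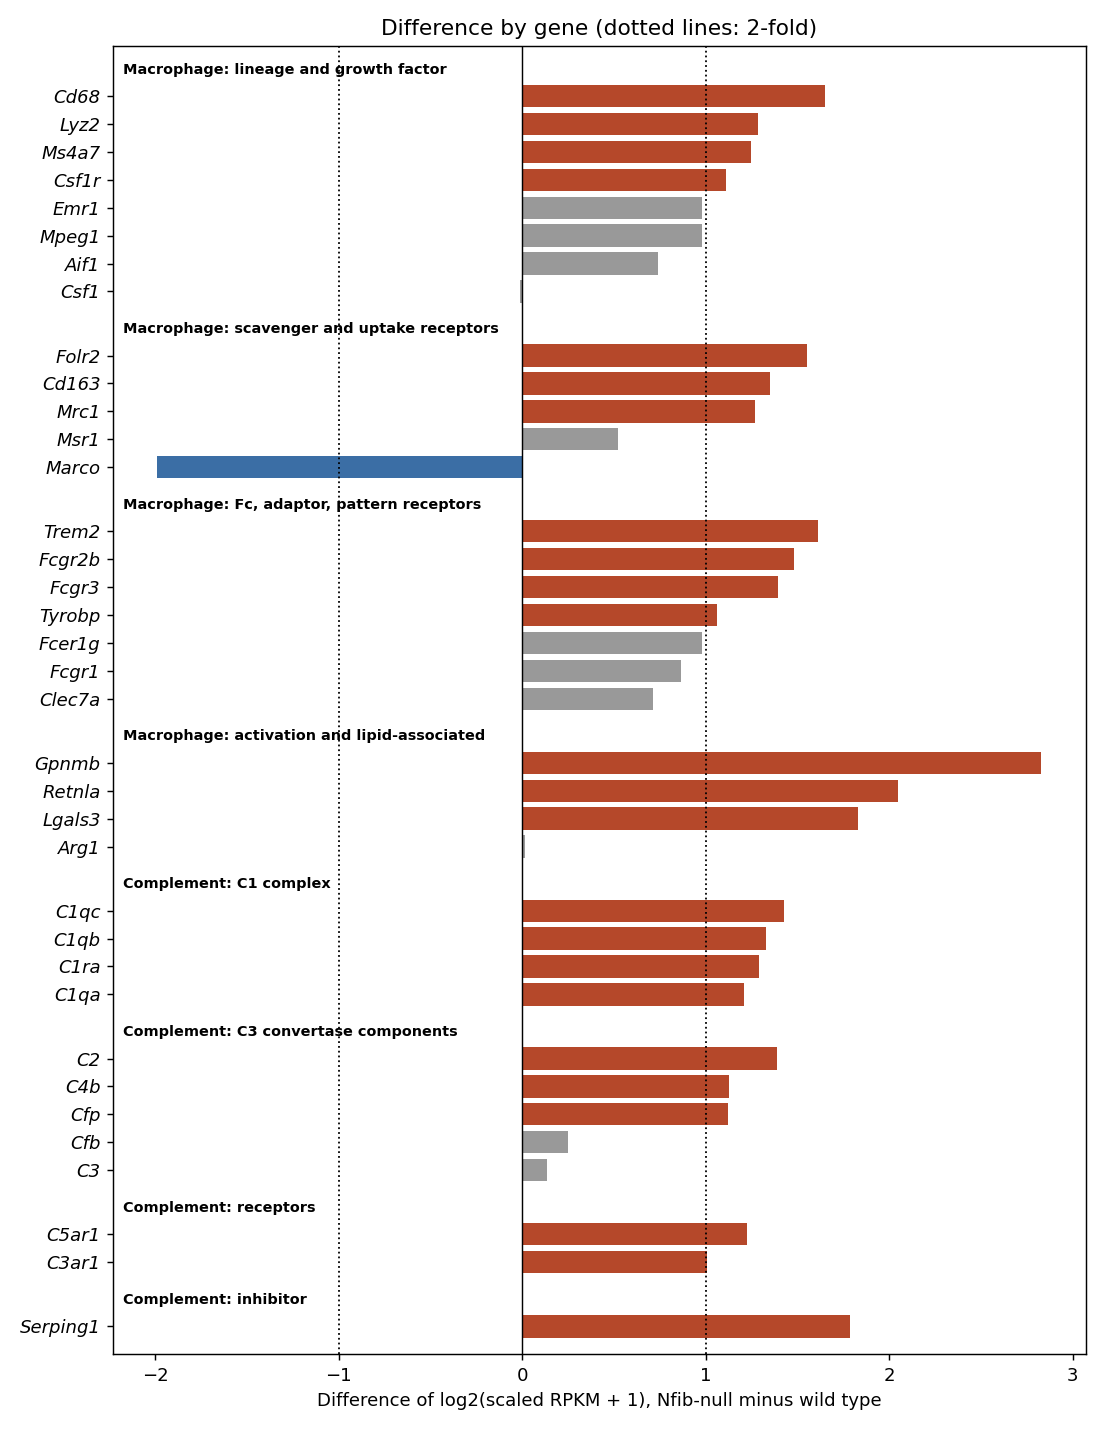
Difference in log2(scaled RPKM + 1) between Nfib-null and wild type (right: higher in Nfib-null) for each of the 36 genes by role, with dotted lines at 2-fold and bars coloured where a gene lies beyond it; there are no error bars because each group has 1 value. Gpnmb (2.83), Retnla (2.05), Lgals3 (1.83) and Serping1 (1.79) extend farthest to the right, Csf1, Arg1, C3 and Cfb stay near 0, and Marco (−1.99) extends to the left; scaled to adipocyte or fibroblast markers the medians of both classes turn negative.

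The C1 complex was uniformly higher. C1qa stood at 113 against 36.2 RPKM (log2 difference 1.21), C1qb at 111 against 32.6 (1.33) and C1qc at 95.3 against 26.1 (1.43), the genes for the A, B and C chains that assemble in equal numbers. The 3 genes follow each other in the RefSeq gene order with 0 protein-coding genes between them. The ratio of C1qa to C1qb was 1.02 in the Nfib-null column and 1.11 in the wild type, and that of C1qa to C1qc was 1.18 and 1.39. Chain levels per length were therefore close to each other in both groups. C1ra, the protease C1r, stood at 21.4 against 6.06 RPKM (1.29), and its copy C1rb is listed at 0 in both columns.

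C3 and the genes of the enzymes that split it were divided. Of these 5 genes 3 were higher (C2, C4b and Cfp), against 6.95% of all genes, and C3 and Cfb were within 2-fold. C2, the protease of the classical C3 convertase, stood at 16.6 against 4.21 RPKM (1.39), and C4b, its partner, at 58.3 against 19.6 RPKM (1.13). The near copy C4a stood at 0.268 against 0.144 RPKM. Cfp, properdin, which stabilises the alternative convertase, stood at 32.1 against 10.6 RPKM (1.12).

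C3, the most abundant member in both columns, stood at 377 against 257 RPKM (0.14). Cfb, factor B, the protease of the alternative convertase, stood at 34.8 against 21.9 RPKM (0.25). The ratio of C3 to Cfb was 10.8 in the Nfib-null column and 11.8 in the wild type. Cfb lies directly beside C2 in the RefSeq gene order, yet C2 stood at 0.476 of the Cfb level in the Nfib-null column and at 0.192 in the wild type. Reads of such close neighbours cannot be fully separated where strand and transcript ends are not given. With values as deposited C3 and Cfb were still within 2-fold.

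Receptors for the split products had low levels, and both lay at or beyond the 2-fold limit. C5ar1, the receptor for the attractant C5a, stood at 5.44 against 1.25 RPKM (1.23), and C3ar1, the receptor for C3a, at 4.24 against 1.15 RPKM (1.01). Their ratios as deposited were 4.34 and 3.70. C3ar1 came within 2-fold with quantile normalization (0.86), without a filter (0.99) and with a pseudocount of 5 (0.46), and C5ar1 with a pseudocount of 5 (0.59). Serping1, the C1 inhibitor that shuts off C1r and C1s, stood at 179 against 38.5 RPKM (1.79), the largest difference among the complement members. The ratio of Serping1 to its target gene C1ra was 8.37 in the Nfib-null column and 6.35 in the wild type. Fibroblast markers were all 10 higher (median 1.56, summed RPKM 1875 against 491), and their part in the values of Serping1, C1ra and C4b was not tested.

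Set against 6 macrophage markers that are members themselves (Csf1r, Emr1, Cd68, Mpeg1, Tyrobp and Aif1, median 1.02), the members spread over a range. Farthest above that median on the log2 scale were Gpnmb at 1.81, Retnla at 1.03, Lgals3 at 0.81 and Serping1 at 0.76, and Cd68 came next at 0.63. The C1q genes lay 0.19 to 0.40 above it. Farthest below it were Cfb at −0.77, C3 at −0.88, Arg1 at −1.01, Csf1 at −1.03 and Marco at −3.01, and Msr1 came next at −0.50. Other members lay closer to that median on either side. As shares of the summed RPKM outside the 8 milk protein genes, macrophage members made up 0.271% in the Nfib-null column and 0.0812% in the wild type, and complement members 0.259% and 0.126%.

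**Figure D3:**
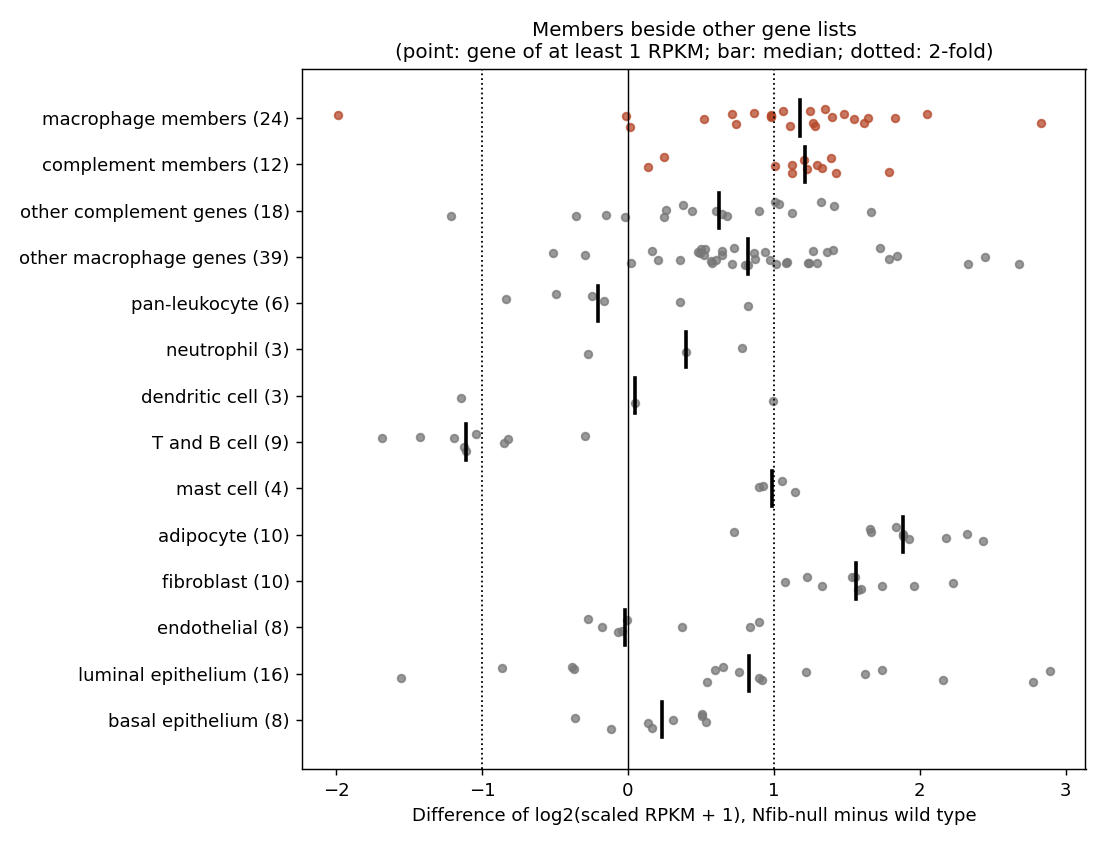
Difference in log2(scaled RPKM + 1) between Nfib-null and wild type (right: higher in Nfib-null) for the macrophage and complement members (coloured) and for other gene lists (grey), each point a gene whose mean reached 1 RPKM and each bar the median of its list; numbers in brackets count the genes. Members centre at 1.18 and 1.22. The adipocyte (1.89) and fibroblast (1.56) lists lie to their right, and the pan-leukocyte (−0.20) and T and B cell (−1.11) lists to their left. Scaled to adipocyte or fibroblast markers both member medians turn negative.

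Other macrophage genes, on a list of 40 that holds none of the members, were counted in the same way. Of 39 above the minimum 15 were higher and 0 lower (median 0.82, range −0.51 to 2.68), against 6.95% and 5.97% of all genes. Those with the largest differences included Cd14, a co-receptor for bacterial lipopolysaccharide (639 against 74.2 RPKM, 2.68), Hmox1, which breaks down haem (71.6 against 9.14, 2.45), Slc40a1, the iron exporter ferroportin (16.5 against 1.78, 2.33), and the lectin Mgl2 (27.3 against 5.33, 1.79). In the Nfib-null column Cd14 lay above every macrophage member, of which Retnla was the highest at 350 RPKM. The part of other cell types in the values of Cd14, Hmox1 and Slc40a1 was not tested. Hmox1 and Slc40a1 handle the haem iron that Cd163 takes up. The transcription factor PU.1, listed as Sfpi1 and picked out once its value was known, stood at 9.32 against 3.88 RPKM (0.73).

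Other complement genes were split. Among 34 with values, 18 passed the minimum, of which 6 were higher and 1 lower (median 0.63), against 6.95% and 5.97% of all genes. Of the 6, C6 and Hc, the gene of C5 (3.46 against 0.857 RPKM, picked out once its value was known), passed through the Nfib-null column alone. Cfd, factor D or adipsin, an enzyme of fat cells that activates factor B and also an adipocyte marker here, stood at 2447 against 579 RPKM (1.67). C1s, the partner protease of C1r, stood at 54.9 against 16.0 RPKM (1.32), the terminal component C6 at 2.74 against 0.474 (1.13), and Itgam, a chain of complement receptor 3, at 5.82 against 1.69 (1.04). Clu, clusterin, an inhibitor of the terminal complex that epithelium also secretes, was lower at 459 against 803 RPKM (−1.22).

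Markers of other blood cells were read beside the macrophage genes. Of 6 pan-leukocyte genes 0 were beyond 2-fold (median −0.20, summed RPKM 85.4 against 68.3), and Ptprc, the CD45 antigen of all leukocytes, stood at 7.30 against 8.06 RPKM (−0.49). The other direction was seen for 2 of the 6, Laptm5 (31.8 against 13.2 RPKM, 0.82) and Cd53 (7.59 against 4.27 RPKM, 0.36). Laptm5 is also on the list of other macrophage genes. Neutrophil markers had 3 of 9 above the minimum and 0 beyond 2-fold (median 0.40), and the granule genes Mpo and Elane, below the minimum, differed in opposite directions, at 0.0394 against 0.171 RPKM and at 0.480 against 0.0611 RPKM. Dendritic cell markers, cells that share Clec7a and Fcer1g with macrophages, had 3 of 8 above the minimum (median 0.05, summed RPKM 9.76 against 6.82), with Ccr7 lower (−1.15), Cd209a at 0.995 and Zbtb46 at 0.05, and their part in the values of both members was not tested. Mast cell markers, cells that share Fcer1g with macrophages, had 2 of 4 higher (median 0.99, summed RPKM 63.9 against 22.4), and their part in the Fcer1g value was not tested. Endothelial markers had 0 of 8 beyond 2-fold (median −0.02).

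**Figure D4:**
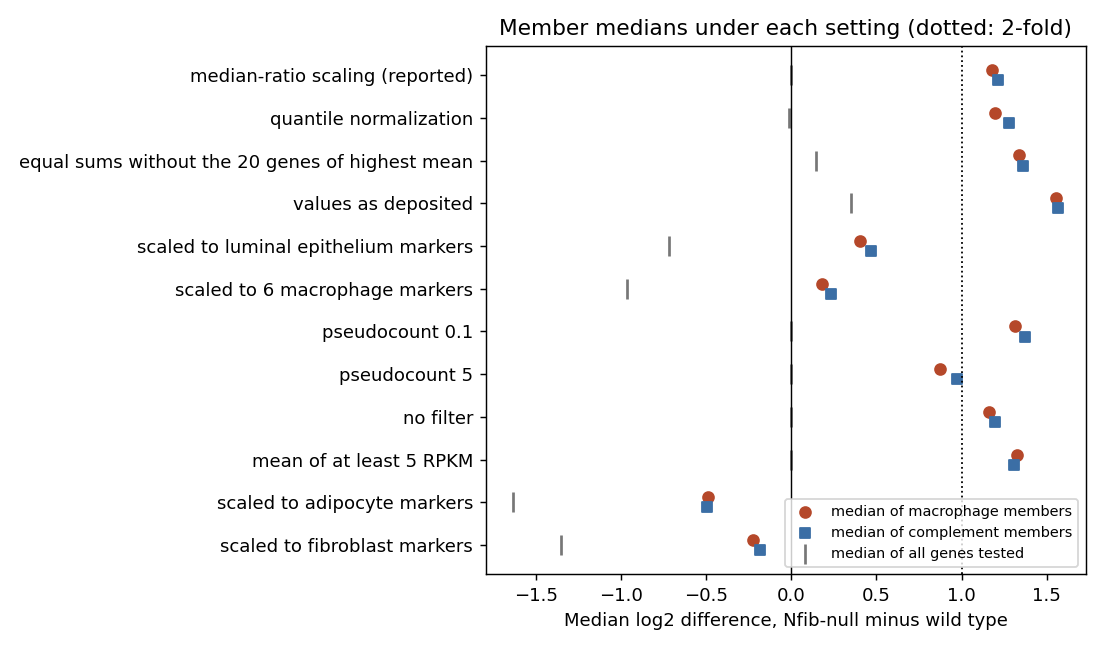
Median log2 difference, Nfib-null minus wild type, of the macrophage (circles) and complement members (squares) and of all genes tested (bars) under each scaling, pseudocount and minimum. The members stay to the right of the median of all genes in every setting shown, but scaling to adipocyte markers (−0.49 and −0.50) and to fibroblast markers (−0.22 and −0.18) places them left of 0.

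Counts of members moved with the setting, and so did the share of all genes beyond the limit. With a pseudocount of 5, 8 macrophage and 5 complement genes were higher, against 2.77% of all genes higher and 3.55% lower. Scaled to the 6 macrophage markers, Gpnmb alone stayed higher, against 0.847% of all genes higher and 47.8% lower, and Marco and Csf1 were the 2 members lower. Scaled to adipocyte markers, where 0.176% of all genes were higher and 80.0% lower, and to fibroblast markers, where 0.320% were higher and 69.6% lower, Gpnmb again was the 1 member higher, and 3 macrophage genes (Marco, Csf1 and Arg1) and 2 complement genes (C3 and Cfb) were lower. At 4-fold, 0.727% of all genes were higher and 1.23% lower. With a minimum mean of 5 RPKM, which leaves out Marco, 0 members and 6.02% of all genes were lower.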

How the data were processed

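Poly(A) RNA of whole glands was sequenced on an Illumina instrument, per the labels' protocols. Per the submitters' processing notes, CASAVA, TopHat and mm9 were used (no versions there). The counting tool, the annotation and the use of strand are not stated in these sources. The authors deposited RPKM values, per the file headers, as 2 group columns for 22609 genes. In the wild-type column 8 of 489 genes of at least 100 RPKM had exactly the value of another gene, against 0 of 544 in the Nfib-null column, so wild-type values may have been adjusted by rank and are approximate.

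Genes with a library-weighted mean of at least 1 RPKM were kept (12511, with 10098 removed). Columns were divided by median-ratio factors of 1.15 (Nfib-null) and 0.867 (wild type), which removed a median log2 ratio of 0.41, and log2(scaled RPKM + 1) values were subtracted. RPKM values in the text are unscaled. Calculations used Python 3.11.15, numpy 2.4.6, pandas 2.3.3 and scipy 1.17.1, and were tested on simulated data.

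Reads per library were estimated from the smallest steps between low values of genes with 1 transcript in GENCODE M21. Only the 2 strongest steps were kept in each group, so 1 of the 3 Nfib-null libraries has no estimate by design. The steps corresponded to about 14900000 and 17400000 reads in the wild type and 27200000 and 33400000 in the Nfib-null column. A gene of 1 kb at 1 RPKM then rests on about 32.3 and 60.6 reads. Read numbers in the text use the longest coding transcript, and are rough. If wild-type values were adjusted by rank, the wild-type read numbers and the counting intervals of Marco and Trem2 would not hold.

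The test designed for values per library (limma) could not be run on group values. Every member is named, and of the other lists the 5 largest differences beyond 2-fold in each direction, of which some are not reported here. Members and lists were chosen with earlier results of these data known. Of 208 listed genes 206 were matched by symbol or RefSeq synonym, and C7 and Ly6g were not analysed here. Promoters came from RefSeq, GRCm38.p6, which is not the submitters' build.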

Additional observations from a re-analysis of the deposited data

How the results depend on the processing

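No paired analysis was possible because each group has 1 column and no value of a library, and for the same reason no library could be left out. Directions of the counts and medians held, within 1.5 times for the counts, with values as deposited, quantile normalization, equal sums (leaving out the 20 most abundant genes), a pseudocount of 0.1 and no filter. Equal sums moved the median of all genes to 0.15 and values as deposited to 0.35. With a pseudocount of 5, 8 macrophage genes were higher and 0 lower and 5 complement genes higher (medians 0.87 and 0.97). Scaling to luminal epithelium markers left 4 macrophage and 0 complement genes higher (medians 0.40 and 0.47), with the median of all genes at −0.72. Scaling to the 6 macrophage markers left 1 higher and 2 lower macrophage genes and 0 higher complement genes (medians 0.18 and 0.24), and turned Tyrobp, itself a marker, to −0.024. Scaling to adipocyte or to fibroblast markers, both added after the data had been seen, gave 1 higher and 3 lower macrophage and 0 higher and 2 lower complement genes each, with medians of −0.49 and −0.50 for adipocyte markers and −0.22 and −0.18 for fibroblast markers. The complement minus macrophage median was −0.014 with a minimum mean of 5 RPKM, which removed Marco and left 0 macrophage genes lower, and −0.005 with adipocyte scaling. At 4-fold, 2 macrophage genes were higher and 0 lower, and 0 complement genes were higher. The scaling results follow from the list set to 0, and other causes were not tested. Depth limits Marco and Trem2, the members with the fewest reads in 1 group.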

Other observations

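Genes near the members in sequence or place had lower levels. Lyz1, the neighbouring copy of Lyz2 that is typical of intestine, was at 22.0 RPKM in Nfib-null and at 8.89 RPKM in wild-type glands, and the ratio of Lyz2 to Lyz1 was 14.2 and 10.8. Emr4, a relative of Emr1, stood at 0.668 against 0.279 RPKM. Fcgr4, between Fcgr2b and Fcgr3, stood at 2.93 against 1.34 RPKM. Retnlg, a neutrophil relative of Retnla, stood at 0.531 against 0.448 RPKM. These genes were named after their values had been seen.

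Among complement genes below the minimum, Cr2, the complement receptor of B cells, was at 0.0386 RPKM in Nfib-null and at 0.789 RPKM in wild-type glands, the direction of Marco and of the B cell marker Ms4a1 (0.236 against 2.49 RPKM). Vsig4, a complement receptor of resident macrophages, stood at 0.322 against 0.0472 RPKM, and Timd4, another gene of resident macrophages, at 1.84 against 2.35 RPKM. These genes too were chosen after their values had been seen.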
